A study of Mus musculus with 3 samples.

Results

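The cytosolic ribosomal protein genes code for the proteins of the small (40S) and large (60S) ribosomal subunits and of the P-stalk, the arm of the large subunit that recruits translation factors. They were taken by symbol: every gene read by a probe set with a single symbol starting with Rpl or Rps and a digit, or named Rplp0, Rplp1, Rplp2 or Rpsa, without the Rps6k kinases and the named pseudogenes. This gave 63 of 19938 measured genes, read by 219 probe sets. They were 30 proteins of the 60S subunit, 3 of the P-stalk, 21 of the 40S subunit and 9 paralogs or near relatives that are not core subunit proteins.

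Kidney RNA came from female CBL/6 mice aged 8 to 10 weeks and was read on Affymetrix Mouse Gene 1.0 ST arrays, which cover a transcript with probes along its exons. The NTS/PGE2 array came from mice given sheep nephrotoxic serum (NTS), an antiserum that causes immune nephritis (13.5 ug per g of mouse, injected once), and then prostaglandin E2 (PGE2) at 5 ug per g daily from day 2. The NTS array came from mice given the serum alone, and the control array from non-treated mice. Kidneys of the injected mice were collected on day 7, and no vehicle injection is named for the other groups. There was 1 array per group and the labels do not say how many mice stand behind it, so no difference had a replicate check, no test was run, and mouse-to-mouse spread is unknown. The kidney label was checked on Miox, a proximal tubule enzyme, which had log2 values of 13.07 in NTS/PGE2, 11.07 in NTS and 13.07 in control, all above the arrays' 90th percentiles of 10.23 to 10.28.

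A ribosome needs each of its proteins in near equal numbers, and the genes are among the most active in any cell. Their mRNAs start with a run of pyrimidines, the 5′ terminal oligopyrimidine (TOP) tract, through which the kinase mTOR and the protein LARP1 set how much of each is translated and how long it lasts. MYC is known to raise transcription of these genes together with that of the ribosome assembly factors. In an injured tubule, cells that re-enter the cell cycle make new ribosomes.

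Some of the annotated gene starts have a run of pyrimidines at or near them. Sequences of RefSeq (GRCm38.p6) from 250 bases before to 50 after the annotated start were held for 51 of the 63 genes. A run of at least 8 C or T bases that reached within 10 bases of the start stood in 20 of these 51 genes (39.2%), against 15.8% of all 27025 genes with such a sequence. The lines give 30 bases, 15 before the start and 15 from it on, for genes with large and with small differences between the arrays, and capitals mark the longest run of C and T near the start.
Rps12 (chr10:23787195-23787224, minus strand): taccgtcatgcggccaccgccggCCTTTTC
Rps9 (chr7:3704026-3704055, plus strand): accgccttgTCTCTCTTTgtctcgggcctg
Rpl14 (chr9:120571502-120571531, plus strand): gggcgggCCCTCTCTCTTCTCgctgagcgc
Rpl24 (chr16:55966260-55966289, plus strand): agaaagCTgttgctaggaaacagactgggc
Rps10 (chr17:27635230-27635259, minus strand): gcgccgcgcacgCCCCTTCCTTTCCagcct
Rps18 (chr17:33955651-33955680, minus strand): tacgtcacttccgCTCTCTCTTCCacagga
Rpl7a (chr2:26910792-26910821, plus strand): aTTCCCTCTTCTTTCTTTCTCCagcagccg
Rpl28 (chr7:4792950-4792979, plus strand): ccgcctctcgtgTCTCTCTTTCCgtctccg
Rps6 (chr4:86857353-86857382, minus strand): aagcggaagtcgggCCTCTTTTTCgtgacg
The runs are 11 bases long in Rps12, where the last lie beyond the printed stretch, 9 in Rps9, 14 in Rpl14, 13 in Rps10, 11 in Rps18, 21 in Rpl7a, 11 in Rpl28 and 10 in Rps6. Rpl24 has no such run at its annotated start. A counted run may lie wholly before the start, as in Rpl13, or after it, as in Rps12. The counts are therefore no share of mRNAs that begin with pyrimidines. A match describes these letters and does not show that a tract is used. Of other motifs searched on both strands of the 300 bases, CCGGAAG stood in 37.3% of the members and 9.93% of all genes, GCCATNTT in 17.6% and 6.96%, and CACGTG in 9.80% and 8.09%.

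Most ribosomal protein genes had their highest value in NTS. All levels below are log2 values of kidney RNA from many cell types, in which fewer cells of a type and less RNA per cell cannot be told apart. For NTS against control, 49 of 63 were higher, 11 lower and 3 equal, with a median log2 difference of 0.25 and an interquartile range of 0.02 to 0.53. Of the 63, 60 passed the filter on dim genes, which asks that the higher value of a comparison reach the median of all probe sets on its array. By a size rule of 0.5 on the log2 scale, a 1.41-fold difference, 17 were higher and 1 lower. Among all 11778 genes passing the filter 9.62% were higher and 14.2% lower by this rule, and their median was 0. By any amount, 40.2% of these genes were higher and 40.6% lower. At 2-fold, 4 members were higher and 0 lower, against backgrounds of 2.7% and 5.42%.

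**Figure D1:**
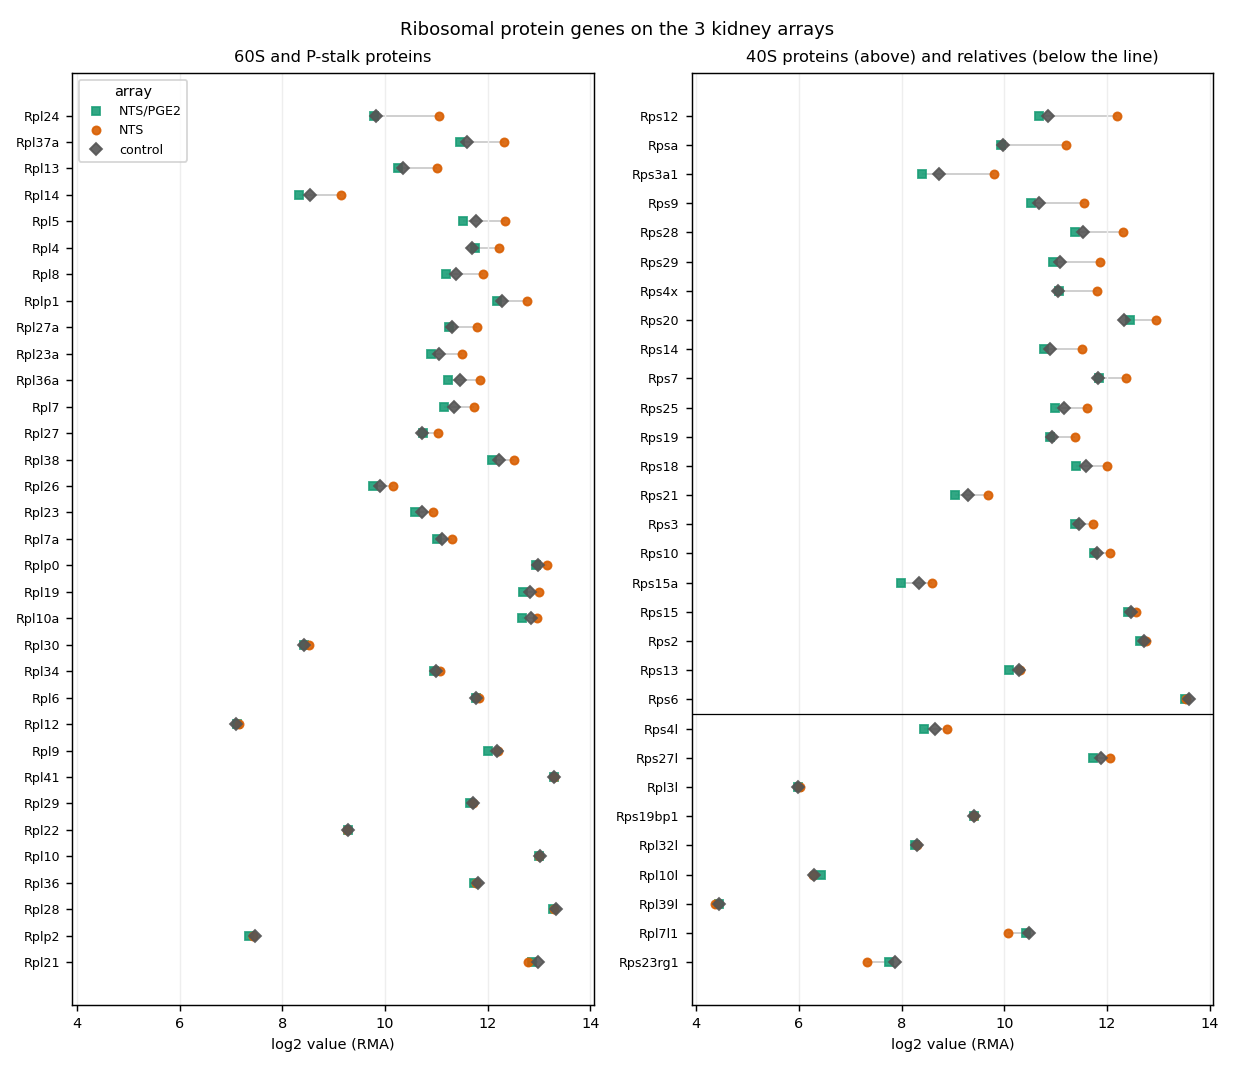
Log2 value (x axis) of each of the 63 genes (rows) on the NTS/PGE2 array (squares), the NTS array (circles) and the control array (diamonds), with a grey line over the range. Rows run from the highest to the lowest difference of NTS minus control within each block. The NTS circle lies to the right of both other points in 49 rows, and the squares and diamonds lie close together.

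Proteins of the 40S subunit stood highest. Of 21, 20 were higher in NTS than in control, 10 of them by at least 0.5, with a median of 0.45. Rps12, a protein of the subunit's beak, read 10.67 in NTS/PGE2, 12.19 in NTS and 10.86 in control, the widest spread of any member, so that NTS lay 2.52-fold above control. Rpsa, a small subunit protein also known as the laminin receptor, read 9.93 in NTS/PGE2, 11.19 in NTS and 9.97 in control, a 2.34-fold difference between NTS and control. Rps3a1, which contacts the initiation factor eIF3, read 8.40 in NTS/PGE2, 9.79 in NTS and 8.73 in control. In each of these genes the NTS value was the highest, and the NTS/PGE2 value lay below control, by 0.04 in Rpsa and by more in Rps12 and Rps3a1.

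The next of the 40S proteins differed less, with NTS again the highest. Rps9, of the mRNA entry channel, read 10.51 in NTS/PGE2, 11.56 in NTS and 10.68 in control. Rps28 read 11.38 in NTS/PGE2, 12.31 in NTS and 11.53 in control, and Rps29 read 10.94, 11.86 and 11.10 on the same arrays. In both, NTS again stood alone. The X-linked Rps4x read 11.07 in NTS/PGE2, 11.81 in NTS and 11.05 in control. Rps20, Rps14 and Rps7 were above control by 0.63, 0.61 and 0.54. Rps6, the substrate of the S6 kinases and the brightest member, was the one 40S protein gene that was not higher: it read 13.51 in NTS/PGE2, 13.53 in NTS and 13.61 in control.

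The 60S proteins showed a smaller shift with more members near 0. Of 30, 24 were higher on the NTS array, 5 lower and 1, Rpl29, equal, with a median of 0.20, and 7 were higher by at least 0.5. Rpl24, a protein at the interface with the small subunit, read 9.78 in NTS/PGE2, 11.06 in NTS and 9.82 in control, 2.36-fold apart between NTS and control and the only 60S gene past 2-fold. The others past 0.5 were Rpl37a at 0.72, Rpl13 at 0.66, Rpl14 at 0.62, Rpl5 at 0.57, Rpl4 at 0.53 and Rpl8 at 0.52. Rpl5 carries the 5S RNA into the ribosome and, when assembly fails, binds the p53 regulator MDM2. It read 11.52 in NTS/PGE2, 12.34 in NTS and 11.77 in control. The 5 lower genes were Rpl21 at -0.20, Rpl28 at -0.05, Rpl36 at -0.04, Rpl10 at -0.02 and Rpl22 at -0.02. The median level of genes with a mean log2 value of at least 10 differed by -0.11 for NTS against control. With the arrays centred on that level, all of these 5 genes but Rpl21 had a positive sign. So did Rps6 and, among the genes described next, Rplp2, Rpl10l and Rpl39l.

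The P-stalk genes differed among themselves. The stalk base Rplp0 read 12.94 in NTS/PGE2, 13.16 in NTS and 12.97 in control. Rplp1 read 12.19 in NTS/PGE2, 12.77 in NTS and 12.29 in control. Its partner Rplp2 read 7.35 in NTS/PGE2, 7.43 in NTS and 7.47 in control, from 1 probe set that carries no curated RefSeq transcript in the platform annotation. That value lay close to the array medians, far below those of Rplp0 and Rplp1. A curated transcript was lacking for 4 members in all, the others being Rpl12, Rps3a1 and Rps4l.

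Paralogs and near relatives had a median of 0 over 9 genes, of which 6 passed the filter, with 3 higher, 4 lower and 2 equal. Rps23rg1, a retrocopy of Rps23, read 7.76 in NTS/PGE2, 7.33 in NTS and 7.86 in control, and at -0.54 for NTS against control it was the 1 member lower by the size rule; with the arrays centred on bright genes it was at -0.42 and no longer past it. Rpl7l1, an assembly factor of the large subunit related to Rpl7, read 10.43 in NTS/PGE2, 10.07 in NTS and 10.48 in control. For both genes the NTS array was the lowest of the arrays. Rpl7 itself read 11.15 in NTS/PGE2, 11.73 in NTS and 11.35 in control, with NTS the highest. Rps27l, a p53 target and close copy of Rps27, was higher by 0.17, and Rps4l, which RefSeq lists as a transcribed pseudogene, by 0.25. Rps19bp1, which binds Rps19 and is no subunit protein, read 9.41 on all arrays, while Rps19 differed by 0.44 for NTS against control. Rpl3l, known from muscle, and Rpl10l and Rpl39l, known from testis, read at most 6.42 on any array, below the array medians of 7.11 to 7.14. Rpl32l read 8.29 on both the NTS and control arrays and 8.26 on the NTS/PGE2 array.

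Members grouped by other roles went the same way as the subunit proteins as a whole. Of those 54, 46 were higher in NTS than in control, 17 by at least 0.5, with a median of 0.30. The role groups are parts of the members and share genes with each other, so they add no separate result. Of 7 measured genes whose proteins are known to bind MDM2, all were higher in NTS, 3 by at least 0.5, with a median of 0.27. Of 8 measured genes that are mutated in Diamond-Blackfan anaemia, all were higher, 4 by at least 0.5, with a median of 0.49. The 7 measured genes often used as constant references in quantitative PCR, among them Rpl19, Rpl4, Rps18 and Rplp0, were all higher too, with a median of 0.31. Rpl4 read 11.75 in NTS/PGE2, 12.23 in NTS and 11.70 in control, and Rps18 read 11.41, 12.01 and 11.59 on the same arrays.

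Most members were lower in NTS/PGE2 than in NTS. The NTS array also serves the comparison above, so these values are set beside those and are not independent of them. Of 63, 55 were lower on the NTS/PGE2 array, 7 higher and 1 equal, with a median of -0.35. Among all genes passing the filter 41.2% were lower and 39.8% higher by any amount. By the size rule 25 were lower and 0 higher, with 60 past the filter, against 11.4% and 12.1% of all 11699 genes passing the filter. At 2-fold 5 were lower: Rps12 at -1.52, Rps3a1 at -1.39, Rpsa at -1.27, Rpl24 at -1.27 and Rps9 at -1.05, against a background of 3.28%. None was 2-fold higher, against 4.15% of genes.

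All 21 of the 40S proteins were lower in NTS/PGE2 than in NTS, with a median of -0.60 and 14 past the size rule. Of the 60S proteins 27 of 30 were lower, with a median of -0.31 and 10 past the rule. Rplp1, at -0.58, was the 1 stalk gene past it. Of the 17 members higher by 0.5 on the NTS array, 16 were lower by at least 0.5 on the NTS/PGE2 array, with Rpl4 the exception at -0.48. These 17 were picked by high values on the NTS array, which is subtracted here, so a drop is partly built in. The share among all genes picked in this way was not computed. Members that passed the rule in this comparison alone included Rps21 at -0.65, Rps25 at -0.62, Rpl36a at -0.63, Rps18 at -0.60 and Rps15a at -0.59. The 7 higher genes were small in difference, led by the relatives Rps23rg1 at 0.43 and Rpl7l1 at 0.36.

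NTS/PGE2 against control, which shares an array with each of the others, showed small differences. The median was -0.10, with 49 of 63 members lower, 8 higher and 6 equal, and 59 passed the filter. Among all genes passing the filter 41.1% were lower and 30.8% higher by any amount. Among genes with a mean log2 value of at least 10, 49.4% were lower. None passed the size rule in either direction, against 3.02% of 11534 genes lower and 0.85% higher, nor 2-fold, against 0.659% and 0.0607%. All but 3 members lay within 0.25 of control, 60 of 63, where 84.6% of the genes passing the filter did. The 3 were Rps15a at -0.34, Rps3a1 at -0.33 and Rps21 at -0.26. The highest 5 were Rpl10l at 0.12, Rps20 at 0.12, Rpl4 at 0.05, Rpl12 at 0.02 and Rps4x at 0.02. For 13 of the 17 genes that stood higher by 0.5 on the NTS array, the NTS/PGE2 value lay below control. That share was close to the 49 of 63 among all members.

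**Figure D2:**
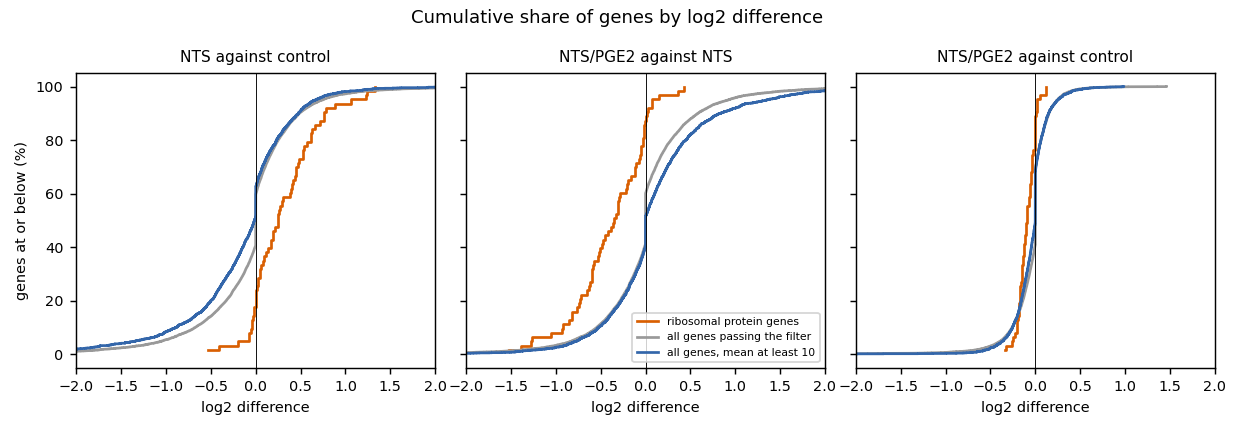
Share of genes (y axis, %) with a log2 difference at or below the value on the x axis, drawn from -2 to 2, in each of the 3 comparisons, for the 63 ribosomal protein genes, all genes passing the filter and all genes with a mean log2 value of at least 10. The members lie to the right of both other curves for NTS against control (median 0.25) and to their left for NTS/PGE2 against NTS (median -0.35), and close to 0 for NTS/PGE2 against control (median -0.10).

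The NTS array was the highest of the arrays for 49 of 63 members (77.8%) and the lowest for 7. Over all 19938 genes it was the highest for 25.1%, and for 34.6% of the 2273 genes with a mean log2 value of at least 10. The median level of those bright genes differed by -0.11 for NTS against control, which is the shift used in centring. The median of their differences taken gene by gene was only -0.01. Relative to the shift of -0.11 the members' median for NTS against control was 0.36.

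Several probe sets read most members, which gives a technical check. They share the RNA of an array and cannot stand in for animals, and sets may also read pseudogenes and near copies, which this gene family has in large number, so a level of a single gene is uncertain. Of 39 members with several probe sets, all sets of the gene were higher in NTS than in control in 32 and all lower in 3. All sets were lower in NTS/PGE2 than in NTS in 34, and all higher in 0. The pooled SD of a probe set's difference within a gene was 0.08 for NTS against control, over 182 distinct probe sets of 38 genes. The 14 sets of Rps12 had a mean difference of 1.33 for NTS against control. They held 8 sets with distinct values, over which the SD of the difference was 0.07. Rps9 was the least certain: its 2 sets differed by 0.58 and 1.18 in the same comparison.

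**Figure D3:**
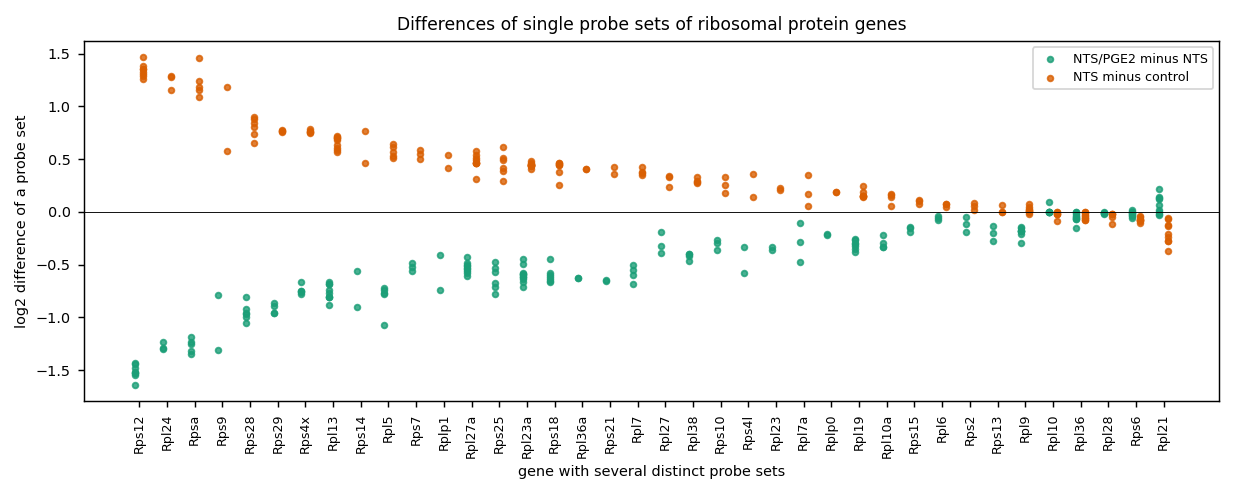
Log2 difference (y axis) of each distinct probe set for genes with several (x axis, ordered by the gene's mean difference of NTS minus control), as NTS/PGE2 minus NTS (green) and NTS minus control (orange). Rps9 has the widest spread of orange points, at 0.58 and 1.18, followed by Rpsa, from 1.09 to 1.46. The colours close in on 0 towards Rpl28 and Rps6. At Rpl21 they part again, with orange points from -0.37 to -0.06 and green points from -0.03 to 0.22.

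The difference varied with the level of the gene. Level classes were chosen after the values were seen. For NTS against control the median was 0.04 in 16 members with a mean log2 value below 10, 0.44 in 32 members from 10 to 12, 0.15 in 10 from 12 to 13 and -0.02 in 5 of at least 13. The last were Rps6, Rpl28, Rpl41, Rplp0 and Rpl10; Rpl41 read 13.30 on all arrays to 2 decimals. Genes outside the family with these levels had medians of -0.01, -0.18 and -0.07 in the upper 3 classes. Across the 63 members Spearman's rho between mean level and difference was 0.02, and across the 47 with a mean of at least 10 it was -0.44; members share the arrays and some share probes, so no p is given. The highest value of any probe set on these arrays was 14.68, and whether the brightest members were compressed by the upper end of the scale was not tested.

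**Figure D4:**
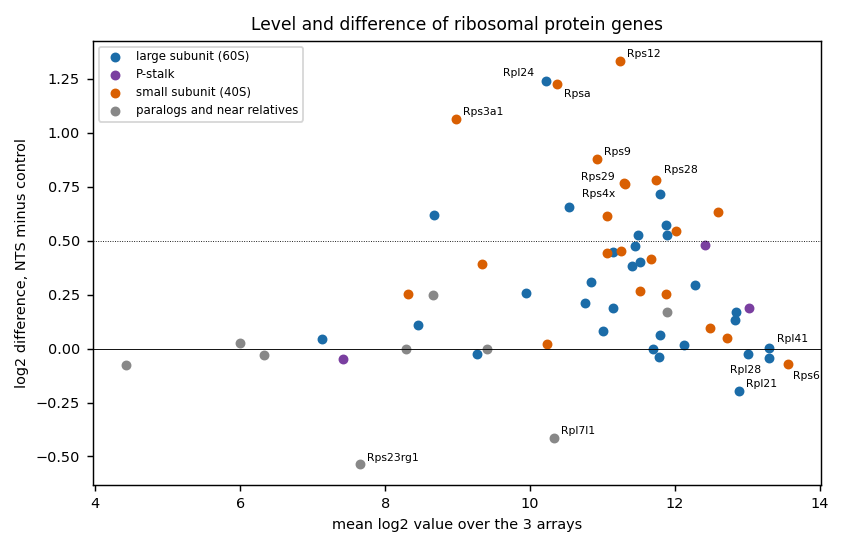
Log2 difference of NTS minus control (y axis) against the mean log2 value over the arrays (x axis) for the 63 genes, coloured by role. The dotted line marks the size rule of 0.5. The largest differences lie at means of about 9 to 12, and genes at 13 and above lie near 0 apart from Rplp0 at 0.19.

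Some members' own probe sets read dimmer than the sets they share with other symbols. The single-symbol set of Rpl12 read 7.13 in NTS/PGE2, 7.15 in NTS and 7.10 in control. The 8 sets that carry Rpl12 with another symbol averaged 12.13, 12.53 and 12.26 on the same arrays. Rps15a read 8.00 in NTS/PGE2, 8.59 in NTS and 8.34 in control from its single-symbol set, and 10.28, 11.09 and 10.44 on the same arrays from 2 sets shared with its pseudogenes. The bright sets gave larger differences for both genes, at 0.27 for Rpl12 and 0.64 for Rps15a for NTS against control. Rps3a1 differed by 1.06 from its own set and by 0.77, under 2-fold, from 2 brighter shared sets at 10.85 in NTS/PGE2, 11.73 in NTS and 10.96 in control. Rpl30 turned in sign, at 0.11 from its own set and -0.10 from 10 shared sets. Rpl34 did so too, at 0.08 from its own set and -0.004 from 4 shared sets.

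Genes that make and serve ribosomes had smaller medians than the members, but the sets listed here were also dimmer. Median log2 values in control were 8.42 for ribosome biogenesis factors, 8.52 for RNA polymerase I machinery and 9.27 for mitochondrial ribosomal proteins. For the members it was 11.11. The 16 members with a mean log2 value below 10, relatives among them, had a median difference of 0.04 between NTS and control. Between NTS/PGE2 and NTS their median was -0.05. The part of level in the smaller medians was not tested. Of 72 measured ribosome biogenesis factors, 6 were higher in NTS than in control by at least 0.5 and 3 lower, with a median of 0.03. The largest were Nhp2, of the pseudouridylation complex, which read 8.45 in NTS/PGE2, 9.55 in NTS and 8.36 in control, Pes1 at 0.77 and, lower, Dkc1 at -0.75. Nucleolin (Ncl) read 10.35 in NTS/PGE2, 11.09 in NTS and 10.58 in control. For NTS/PGE2 against NTS, 13 of the 72 were lower by at least 0.5 and 0 higher, with a median of -0.05. RNA polymerase I machinery had a median of 0 over 16 genes in each of the 3 comparisons, with Twistnb higher at 0.59 and Znrd1 and Taf1a lower at -0.68 and -0.61 for NTS against control. The 77 measured mitochondrial ribosomal proteins, which serve a separate ribosome, had a median of 0 with 4 higher and 8 lower by at least 0.5 for NTS against control. Mrps18c, at 1.02, and Mrpl49, at -1.07, were past 2-fold.

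Factors of translation come next. Of 9 genes listed with the elongation factors, 1 was higher and 1 lower by at least 0.5 for NTS against control. The higher was Eif5a2 at 0.90. The lower was Eef1e1 at -0.64, which is named as an elongation factor but is not one. Eef1b2 differed by 0.44, while the brighter Eef1a1 and Eef2 differed by 0.03 and 0.002. The median of the 9 was 0.03. Of 27 initiation factors 4 were higher and 0 lower by at least 0.5, with a median of 0.13, and 5 were lower and 0 higher by that size for NTS/PGE2 against NTS, with a median of -0.22. Eif6, which keeps the subunits apart until the 60S is mature, read 10.39 in NTS/PGE2, 11.25 in NTS and 10.64 in control. Of 17 other genes with TOP mRNAs, 1 was higher by 0.5 on the NTS array, the intermediate filament gene Vim at 0.93, and 4 were lower by 0.5 for NTS/PGE2 against NTS: Vim at -1.11, Npm1 at -0.73, Eif3e at -0.67 and Naca at -0.50. Their medians were 0.12 and -0.21. Fau, whose product is a 40S protein outside the symbol rule, read 12.31 in NTS/PGE2, 12.32 in NTS and 12.38 in control.

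Among 27 regulators of ribosome production, 2 were higher and 3 lower by 0.5 for NTS against control, with a median of 0.02. Myc read 8.39 in NTS/PGE2, 9.39 in NTS and 8.39 in control. Larp1 was higher by 0.57. The 3 lower genes were Tbc1d7 at -0.65, Pdcd4 at -0.61 and the mTOR complex subunit gene Mlst8 at -0.56. The translation inhibitor Eif4ebp1, which mTOR inactivates, read 9.23 in NTS/PGE2, 10.13 in NTS and 9.70 in control. Split by the start sequence, members with a run of at least 8 pyrimidines had a median of 0.25 for NTS against control (20 genes) and those without one 0.19 (31 genes). For NTS/PGE2 against NTS these medians were -0.38 and -0.30. For NTS against control the medians with and without a motif were 0.25 (19 genes) and 0.20 (32 genes) for CCGGAAG, 0.21 (5 genes) and 0.22 (46 genes) for CACGTG, and 0.08 (9 genes) and 0.23 (42 genes) for GCCATNTT. By the size rule 3 of the 19 genes with CCGGAAG and 10 of the 32 without it were higher.

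**Figure D5:**
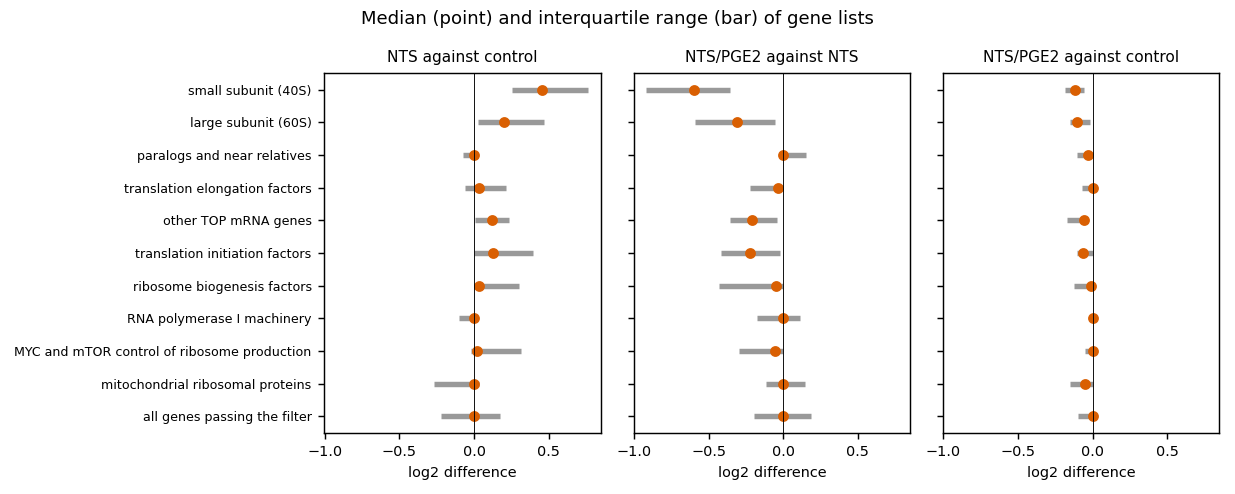
Median (orange point) and interquartile range (grey bar) of the log2 difference (x axis) of 11 sets of genes (rows: the 40S and 60S proteins, paralogs and near relatives, 7 lists of translation and ribosome production genes, and all genes passing the filter) in each of the 3 comparisons. The 40S proteins have medians of 0.45, -0.60 and -0.12 and the 60S proteins 0.20, -0.31 and -0.10, while the medians of the other plotted sets lie between -0.22 and 0.13.

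The cell cycle list went the same way as the members. Of its 28 genes, 24 were higher by at least 0.5 for NTS against control and 23 lower by that size for NTS/PGE2 against NTS. In both comparisons 22 of the 28 passed the filter, and Top2a, Mcm3, Bub1 and Ttk were past 0.5 without passing it. The part of this list in the members' differences was not tested. Tubular injury genes did so as well, with 14 of 17 higher in NTS than in control and 15 lower in NTS/PGE2 than in NTS by at least 0.5; their part was not tested either. Of 25 macrophage genes, 4 were higher and 6 lower by 0.5 for NTS against control, with a median of -0.05. The higher ones included Cd68 at 2.23 and Cd14 at 2.15, and the lower ones Ly86 at -1.35 and Lyz2 at -1.19. Their summed linear level, in which bright genes weigh most, was 5992 in NTS/PGE2, 8379 in NTS and 7555 in control. None of 17 T and NK cell genes passed the filter, 3 of 13 B and plasma cell genes did, and of 14 neutrophil genes Lrg1 alone did, with Ly6g at 5.93 in NTS/PGE2, 5.78 in NTS and 5.85 in control. Of 26 proximal tubule genes 18 were lower by 0.5 for NTS against control, and of 20 endothelium genes 16 were; their part was not tested. The control array held fat transcripts: 9 of 11 adipose genes were lower on the NTS array by 0.5, with a median of -2.86. Their median was 0.03 for NTS/PGE2 against NTS, where the members' median was -0.35; the part of fat in any difference from control was not tested.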

How the data were processed

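Total RNA, 250 ng per array, was labelled with biotin and hybridised to 3 arrays. Per the submitters' processing notes, RMA in Affymetrix Expression Console gave the log2 values the authors deposited; RMA corrects background, equalises the arrays' distributions and summarises each probe set. No version is given in the sources used here. RMA over few arrays gives many exactly equal values, 37.0% of genes for NTS against control, and may understate small differences.

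Symbols came from the platform annotation; 21789 of 35556 probe sets had 1 symbol, 1621 several and 12146 were unnamed here. All 63 members' symbols matched RefSeq through their gene identifiers. Probe sets of a gene were averaged and arrays subtracted (Python 3.11.15, pandas 2.3.3), and the calculation was tested on simulated data. A difference counted by size, 0.5 or 1 on the log2 scale. The members, 17 gene lists, roles and size rules were chosen with earlier results of these data known; Rpl32l was put with the relatives after its name was seen. Named members were the 8 largest differences each way in the first and second comparison, 5 in the third, the P-stalk, relatives and their parent genes, the brightest and dimmest 3, and the reference and MDM2-binding genes; for the other lists, up to 4 genes per comparison. Rpl13, Rpl14, Rpl8, Rps10, Rpl7a, Rpl29, Rps25, Rpl34, Eef1a1, Eef2 and Ly6g were named after their values were seen. Alternatives were other probe set choices, centrings, filters and sizes.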

Additional observations from a re-analysis of the deposited data

Results flagged for a closer look

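Ribosomal protein genes read only by probe sets with several symbols entered none of the comparisons, and 4 of them stood above control on the NTS array by at least 0.5 on the log2 scale. Rps27, read together with its retrocopy Rps27rt, averaged 10.38 in NTS/PGE2, 11.82 in NTS and 10.55 in control over 2 probe sets, a difference of 1.27 for NTS against control. Rpl22l1, a paralog of Rpl22 that shares its sets with a predicted gene, averaged 7.23 in NTS/PGE2, 8.31 in NTS and 7.56 in control, a difference of 0.75. Rpl22 itself read 9.28 in NTS/PGE2, 9.26 in NTS and 9.28 in control. Rpl11, which acts with Rpl5 on MDM2, averaged 11.03 in NTS/PGE2, 11.95 in NTS and 11.22 in control over 6 sets shared with Brf2, a difference of 0.72. Rps24 averaged 10.54 in NTS/PGE2, 11.40 in NTS and 10.75 in control, a difference of 0.65.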

How the results depend on the processing

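No paired analysis was possible because each group has 1 array. Of 69 recomputed medians and counts of the ribosomal protein genes under 8 alternatives, 62 stayed within the limits set for them. For a median the limit was the pooled SD of a probe set's difference. No median changed direction, 2 medians moved past the limit and 5 counts became smaller. A count could not change direction, and a count of 0 that stayed 0 was scored as the same. Medians ranged from 0.23 to 0.36 for NTS against control, from -0.45 to -0.33 for NTS/PGE2 against NTS and from -0.13 to -0.05 for NTS/PGE2 against control. Centring the arrays on bright genes gave the 0.36 for NTS against control, and leaving out paralogs and near relatives gave -0.45 for NTS/PGE2 against NTS. The count lower by 0.5 for NTS against control, which is Rps23rg1, became 0 under both of these and at a size rule of 1. At a size rule of 1, 4 members were higher for NTS against control and 5 lower for NTS/PGE2 against NTS. Counting probe sets with the same values once was added after seeing the data. The background counts of all genes also moved: by 0.5, 1133 genes were higher and 1670 lower for NTS against control, and 373 and 597 with a filter at a log2 value of 10; 318 and 638 passed a size rule of 1. For NTS/PGE2 against NTS 1413 were higher and 1328 lower, 495 and 422 with that filter, and 486 and 384 by the size rule of 1. For NTS/PGE2 against control the counts were 98 and 348, then 36 and 81, then 7 and 76. The number of arrays limits all of these values, and signal over background was not measured here.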

Other observations

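Ribosomal protein genes read only by probe sets with several symbols, the 4 above among them, had their highest value in NTS, as most members did. All 18 such names were higher in NTS than in control, with a median of 0.25, and all 18 were lower in NTS/PGE2 than in NTS, with a median of -0.39. For NTS/PGE2 against control the median was -0.13 and 17 were lower. Rpl39 and Rps26, at 0.02 each, Rpl32 read with Rpl32l, at 0.01, and Rpl3, at 0.04, showed the smallest differences for NTS against control. Rpl13a, a common reference gene in quantitative PCR, averaged 10.85 in NTS/PGE2, 11.42 in NTS and 11.03 in control over 4 sets, some of them shared with snoRNAs of its introns.

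Both excluded pseudogene sets had their highest value in NTS. Rps19-ps3 read 7.98 in NTS/PGE2, 8.29 in NTS and 7.92 in control. Rpl14-ps1 read 7.16 in NTS/PGE2, 7.37 in NTS and 7.22 in control.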
